A study of Mus musculus with 6 samples.

Results

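Transcripts of 35 B lymphocyte genes were followed in RNA from tibial cartilage of mice, as an account of how much B lineage signal such samples hold and how it differs between animals and genotypes. The genes were taken from a list of B lineage genes and split into 8 genes of B cell precursors (Vpreb1, Vpreb2, Vpreb3, Igll1, Rag1, Rag2, Dntt and Il7r) and 27 other B lineage genes, most of them active in mature B cells. They stand among 25494 features tested on the arrays. The samples came from C57BL/6 mice: 3 controls, whose alleles the labels do not describe further, and 3 ADAM10 flox/flox-Col2a1-Cre mice, called mutants here, which carry loxP-flanked Adam10 and a Cre recombinase under the Col2a1 promoter. That promoter is active in chondrocytes (cartilage cells). Ages and sexes are not given in the labels. Each mouse gave 1 array, and the series text names the replicates as separate mice.

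B lymphocytes develop in the marrow spaces that lie against the growth plate and the bone ends. Early progenitors switch on the recombinase pair Rag1 and Rag2 and the terminal transferase Dntt, which assemble and diversify the antibody genes. Cells that have joined a heavy chain show it on the surface with the surrogate light chain, built from a VpreB protein and Igll1 (lambda 5), and they grow in response to interleukin 7 through Il7r. The surrogate light chain is lost once a true light chain is made, and receptors of mature B cells such as Ms4a1 (CD20), Cr2 (CD21) and Fcer2a (CD23) follow.

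The arrays differed little in overall quality. Of the non-control spots, 62.4% to 65.4% exceeded background clearly by the scanner software's own call (well above background), with 0 saturated. Signals are given as log2 of the processed signal relative to the 75th percentile of the same array, which ranged from 510.3 to 631.0 intensity units. A level can be compared between arrays for a given probe, not between probes. Adam10 read 1.61, 1.58 and 1.21 on controls 1 to 3 and 0.15, -1.70 and 0.31 on mutants 1 to 3, a difference of -1.88 (SE 0.53, limma adjusted p 0.987). All 14 chondrocyte markers, among them Col2a1, Acan and Sox9, were well above background on all 6 arrays, so the tissue label and its defining markers go together. All arrays lay on 1 slide, with controls 1 to 3 and mutant 1 in its first row and mutants 2 and 3 in its second. Xist, a transcript of females, gave more signal than the Y-linked Ddx3y on control 1 and mutant 3 and less on the other 4 arrays.

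The promoters of Vpreb1, Vpreb2, Vpreb3 and Igll1 are shown because Vpreb1, Vpreb3 and Igll1 swung widely between animals. In addition, a near-copy pair, Vpreb1 and Vpreb2, did not swing alike. Each sequence is the 250 bases before the annotated start, 5′ to 3′ on the gene's strand, from RefSeq on build GRCm38.p6. Capitals mark matches, on either strand, to the EBF1 core CCCNNGGG, the E2A type E box CAGGTG and the octamer ATGCAAAT, which are sequences recognised by factors of the B lineage.
Vpreb1: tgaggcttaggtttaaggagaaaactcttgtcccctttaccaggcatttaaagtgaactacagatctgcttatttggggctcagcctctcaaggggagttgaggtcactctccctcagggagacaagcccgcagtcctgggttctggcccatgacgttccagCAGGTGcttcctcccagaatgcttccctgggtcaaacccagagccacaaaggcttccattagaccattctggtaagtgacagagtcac
Vpreb2: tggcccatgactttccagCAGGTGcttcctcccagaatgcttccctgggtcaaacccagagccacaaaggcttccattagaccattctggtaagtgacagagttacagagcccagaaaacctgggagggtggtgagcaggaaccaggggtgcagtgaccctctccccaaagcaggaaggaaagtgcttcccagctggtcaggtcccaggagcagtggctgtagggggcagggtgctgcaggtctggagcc
Vpreb3: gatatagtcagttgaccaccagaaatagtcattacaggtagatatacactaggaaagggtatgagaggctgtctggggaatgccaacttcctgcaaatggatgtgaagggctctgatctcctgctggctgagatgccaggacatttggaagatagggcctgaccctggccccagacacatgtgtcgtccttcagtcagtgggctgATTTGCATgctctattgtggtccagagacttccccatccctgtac
Igll1: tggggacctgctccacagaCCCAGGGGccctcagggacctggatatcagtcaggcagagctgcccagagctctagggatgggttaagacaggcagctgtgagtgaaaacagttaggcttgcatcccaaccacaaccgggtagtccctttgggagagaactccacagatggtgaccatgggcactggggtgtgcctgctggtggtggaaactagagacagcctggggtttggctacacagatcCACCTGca
These windows lie at chr16:16869256-16869505 on the minus strand (Vpreb1), chr16:17980315-17980564 on the plus strand (Vpreb2), chr10:75948050-75948299 on the plus strand (Vpreb3) and chr16:16863986-16864235 on the minus strand (Igll1).

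The windows of Vpreb1 and Vpreb2 share a stretch of 103 bases of which 102 are identical. It begins 106 bases before the annotated start of Vpreb1 and 250 bases before that of Vpreb2, so the E box shared by both genes begins 88 and 232 bases upstream. The Vpreb3 window holds an octamer in reverse orientation 45 bases upstream, and the Igll1 window holds an EBF1 core 231 and an E box 8 bases upstream. Of the 35 genes, 26 had a window in the table, 29 windows in all. The E box CAGGTG was present in 13 of those 26 genes, or 44.8% of their windows, against 17.2% of all 32851 windows of the same length. The shares were 13.8% against 11.8% for CCCNNGGG, 6.9% against 1.6% for the octamer, 31.0% against 23.3% for the Ets and PU.1 sequence GAGGAA, and 82.8% against 66.2% for the general E box CANNTG, which includes CAGGTG. A match describes the letters of the window and was not tied to binding.

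All 35 genes had at least 1 probe, 46 probes in all, and 11 genes had 2. Each gene is represented by its brighter probe. Probes detected in this way on 3 or more arrays entered the test. That left 29 genes, 6 of the precursor set and 23 of the others, while Rag1, Rag2, Pax5, Blk, Fcrla and Cxcr5 were too dim. Among the 29, Il7r, Il21r, Ms4a1, Irf4 and Bank1 were above background on only 3 or 4 arrays. Signal was therefore measured throughout for 4 of the 8 precursor genes and 19 of the 27 others. In bulk tissue, fewer cells of a type and less RNA per cell cannot be told apart.

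Vpreb1, the variable-like chain of the surrogate light chain, read 1.60, 1.83 and -1.81 on controls 1 to 3 and -1.52, -0.86 and -0.82 on mutants 1 to 3. Controls 1 and 2 stood far above the rest, and control 3 gave the lowest value of all 6 arrays, so the groups overlap. The signal of control 1 was 10.6 times and that of control 2 was 12.5 times that of control 3. Controls averaged 0.54 ± 2.04 (SD, n = 3) and mutants -1.07 ± 0.39 (SD, n = 3). The difference was -1.61, with an SE of 0.95, a 95% interval from -3.90 to 0.68 and a limma adjusted p of 0.987. It was -0.96 without control 2 and -2.78 without control 3.

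Vpreb3, which binds nascent immunoglobulin chains inside the cell, repeated the pattern at 1.75, 1.70 and -1.95 in controls and -1.66, -0.97 and -1.005 in mutants. Its 2 high controls exceeded control 3 by 12.9 and 12.6 times, and the difference of -1.71 had an SE of 0.99. Igll1, the constant-like partner of VpreB, read -1.43, -1.03 and -4.68 in controls and -5.43, -4.22 and -3.69 in mutants, with mutant 1 not well above background. Its difference was -2.06 (SE 1.01, 95% interval -4.49 to 0.36), which became -1.13 with normexp background correction, and again control 3 lay among the mutants. Vpreb2 was the exception among the VpreB genes and Igll1. It read -0.50, 0.54 and -0.46 in controls and -0.85, -0.78 and -0.06 in mutants, so that only control 2 stood out, and its difference was -0.43 (SE 0.35), or -0.09 without control 2. Because Vpreb1 and Vpreb2 are near-identical copies, RNA of either gene may reach the other's probe, and their separate values are uncertain.

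Of the recombination genes, Dntt was detected on all 6 arrays and Rag1 and Rag2 were not. Dntt read -0.49, -0.02 and -2.72 in controls and -2.44, -2.30 and -1.88 in mutants, with controls 1 and 2 above every other array and control 3 the lowest. Its difference was -1.13 (SE 0.68, limma adjusted p 0.987). Rag1 was well above background on controls 1 and 2 only, at -3.42 and -3.70, and was not on control 3 (-7.19) or on any mutant (-6.98, -7.17 and -6.05). With the mutants set at their detection floor, the control mean was 1.39-fold higher. Control 3, the lowest of the 6 arrays, entered that mean at its undetected value, so the fold is not a lower bound. A dimmer Rag1 probe was undetected throughout. Rag2 passed on control 1 alone, at -5.09, and gives no comparison.

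Il7r, the interleukin 7 receptor, was the only tested precursor gene whose groups did not overlap. It read -3.49, -3.91 and -4.90 in controls and -6.87, -6.08 and -5.44 in mutants, none of the mutants well above background. The control mean was at least 2.20-fold higher than that floor, with an unadjusted limma p of 0.00443 and an adjusted p of 0.987, and the fitted difference of -2.03 became -0.60 with normexp background correction. Il7r entered the test through the controls alone, so separation of its groups was built into the filter. T cells and innate lymphoid cells also use Il7r.

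**Figure D1:**
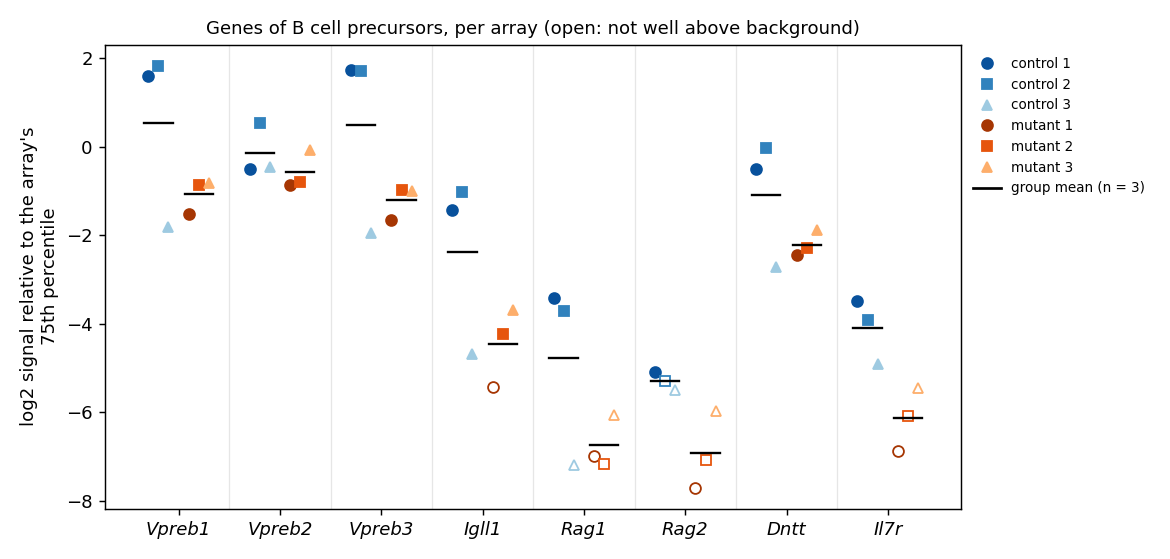
Log2 signal of the 8 precursor genes (y axis, relative to the 75th percentile of each array) on the 3 control (blue) and 3 mutant (orange) arrays, with open symbols where the probe was not well above background and black lines at the group means. Controls 1 and 2 stand above the other 4 arrays for Vpreb1, Vpreb3, Igll1, Dntt and Rag1, while control 3 lies with the mutants.

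The receptor chains that carry the antibody signal into the cell were next. Cd79b read 0.59, 0.46 and -1.87 in controls and -2.08, -2.18 and -1.42 in mutants. Its difference was -1.62 (SE 0.67, unadjusted limma p 0.0488, adjusted p 0.987), and control 3 lay between the mutants. Cd79a, its obligate partner in the receptor, did not show this split. It read -3.29, -3.75 and -3.84 in controls and -4.08, -3.14 and -3.71 in mutants. The difference was -0.02, with an SE of 0.27 and a 95% interval from -0.68 to 0.65. Its probe stayed above background on all 6 arrays and spanned 0.94 log2 units, against 2.77 for Cd79b.

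Among transcription factors and coactivators, Spib and Pou2af1 gave the same split as the precursor genes. Spib, an Ets factor of B cells and plasmacytoid dendritic cells, read -0.50, -0.97 and -3.93 in controls and -3.77, -3.68 and -2.94 in mutants (difference -1.66, SE 0.88). Pou2af1, the octamer coactivator OBF-1, read -0.95, -1.06 and -3.45 in controls and -4.02, -2.77 and -3.20 in mutants (difference -1.51, SE 0.71). Ebf1, which starts the B lineage programme and is also made by stromal and fat precursors, differed less. It read 0.94, 0.59 and 0.15 in controls and 0.29, 0.01 and 0.46 in mutants, a difference of -0.31 (SE 0.23). Pax5, which holds cells in the B lineage, was well above background on control 1 alone, at -4.79. Bach2 and Ikzf3 had differences of -0.23 (SE 0.33) and -0.38 (SE 0.30), and Ikzf3 was highest on control 3, at -1.93. Irf4 was above background on controls 1 and 2 and mutant 1, and its difference of -1.19 (SE 0.88) was -0.43 without mutant 2 and -0.28 with normexp correction.

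Mzb1, an endoplasmic reticulum protein that aids antibody assembly, read -1.76, -1.68 and -4.70 in controls and -4.63, -4.29 and -4.04 in mutants (difference -1.61, SE 0.80, or -0.90 with normexp correction). Ms4a1 read -2.74, -3.08 and -6.23 in controls and -5.59, -5.53 and -4.62 in mutants, with control 3 and mutants 1 and 2 not well above background. The Fc receptor-like gene Fcrla was detected on controls 1 and 2 alone, at -2.51 and -3.04. Its control mean was 1.96-fold above the mutants' floor. Control 3, the lowest of the 6 arrays, entered that mean at its undetected value of -7.24, so the fold is not a lower bound. Cxcr5, the follicular homing receptor, was detected on control 1 alone, at -5.06, and Blk, a Src family kinase, on control 1 and mutant 2. Spib, Pou2af1, Mzb1 and Ms4a1 were picked for this description after their values were seen.

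Some receptors of later B cells varied little, in contrast to Ms4a1. Cr2 read between -3.19 and -2.68 on all 6 arrays, with a difference of 0.01 (SE 0.17, 95% interval -0.39 to 0.42). Cd22, an inhibitory lectin of the B cell surface, read 0.29, 0.58 and 0.79 in controls and 0.51, 0.48 and 1.04 in mutants, a difference of 0.12 (SE 0.21). Tnfrsf13c, the receptor for the survival factor BAFF, differed by -0.33 (SE 0.23), and its dimmer probe gave 0.19. Fcer2a was the only gene of the 35 with a positive difference at an unadjusted limma p below 0.05. It read -3.34, -2.85 and -2.93 in controls and -2.60, -2.64 and -2.41 in mutants, a difference of 0.49 (SE 0.17, unadjusted p 0.0248, adjusted p 0.987), with every mutant above every control. With normexp correction it was 0.18. Cd24a, the heat-stable antigen of precursor B cells, red cell precursors and many other cells, was bright throughout, from 5.01 to 5.48, and differed by 0.17 (SE 0.14).

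In a further group of genes mutant 2 was the lowest array. For Blnk, Btk, Bst1 and Cd37, controls 1 and 2 also stood above the other arrays, and control 3 below both. Blnk, the adaptor that links the B cell receptor to calcium signalling, read 1.18, 1.71 and 0.56 in controls and 0.09, -1.50 and 0.46 in mutants (difference -1.47, SE 0.55, unadjusted limma p 0.0351). Btk, the kinase it works with, read -1.24, -0.86 and -1.29 in controls and -1.96, -3.87 and -1.83 in mutants (difference -1.42, SE 0.54, unadjusted limma p 0.0364). For both, every mutant lay below every control, and mutant 2 lay well below the other mutants. Without mutant 2 the differences were -0.88 for Blnk and -0.77 for Btk. Macrophages and other myeloid cells also make Btk.

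Bst1 (CD157), an enzyme of the surface of early B cells, stroma and myeloid cells, read -2.75, -2.50 and -3.18 in controls and -3.62, -4.91 and -3.50 in mutants (difference -1.20, SE 0.40). Cd37, a tetraspanin of leukocytes, read -0.12, -0.09 and -0.81 in controls and -0.96, -1.79 and -0.85 in mutants (difference -0.86, SE 0.32), and its dimmer probe differed by -1.18. In both genes the groups were separate on the brighter probe, with control 3 and mutant 3 the nearest pair. Bst1's dimmer probe, above background on controls 1 and 2 only, differed by -0.65. On it the groups overlapped, with control 3 at a signal of 5.33 and mutants 1 and 3 at 11.9 and 17.8. The brighter Bst1 probe differed by -0.62 with normexp correction. Without mutant 2 the differences were -0.75 for Bst1 and -0.56 for Cd37. Il21r read -4.53, -4.48 and -4.54 in controls and -5.54, -6.22 and -5.34 in mutants, with 0 of 3 mutants well above background. Its control mean was at least 1.65-fold above the floor (unadjusted limma p 0.00195, adjusted p 0.987), and the fitted difference of -1.18 was -0.29 with normexp correction. Like Il7r, Il21r entered the test through the controls alone. Cd40, the costimulatory receptor, differed by -0.88 (SE 0.41), or -0.42 without mutant 2. The adaptor Bank1, not well above background on control 3 and mutant 2, differed by -1.20 (SE 0.77), or -0.29 without mutant 2 and -0.24 with normexp correction. Bank1's other probe, which was above background on 2 arrays, differed by -0.06. Cd72, a coreceptor of B cells, differed by -0.42 (SE 0.22).

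**Figure D2:**
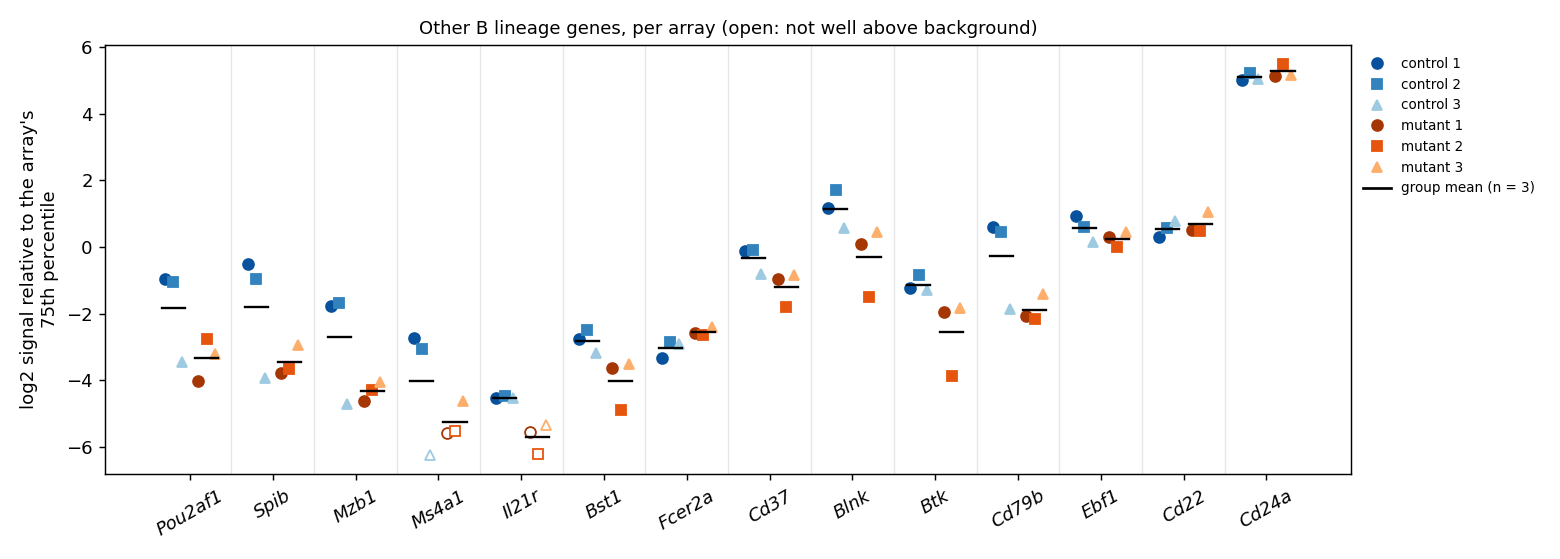
Log2 signal of 14 other B lineage genes (y axis, relative to the 75th percentile of each array) on each array, with open symbols where the probe was not well above background and black lines at the group means. The 4 genes at the left repeat the split among controls, Bst1, Cd37, Blnk and Btk are lowest on mutant 2, and Cd22 and Cd24a vary little.

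Over the whole table, limma called 0 of 25494 features at an adjusted p below 0.05 (0.0%), with 875 at an unadjusted p below 0.05. None of the 29 tested B lineage genes passed: 27 had an adjusted p of 0.987, and Cd79a and Cr2 had 0.995. At an unadjusted p below 0.05 in the lower direction there were 7 (Il7r, Cd79b, Blnk, Btk, Bst1, Cd37 and Il21r), or 24.1%, where 1.88% of all features met that rule. Of the 7, Il7r and Il21r had been selected by the filter for their level in controls. In the higher direction 1 gene met it, 3.45%, against 1.55% of all features. The count of 7 rested on single animals: leaving out control 2 gave 2, control 1 gave 3, mutant 2 gave 4 and control 3 gave 15. Among arrays of the slide's first row it was 3, as it was where Ddx3y exceeded Xist. With the probes above background on all 6 arrays it was 5, without Il7r and Il21r.

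The groups did not overlap, with mutants below controls, for 6 of the 29 genes (20.7%), against 3.75% of all features. In the other direction this held for Fcer2a alone (3.45%), against 5.19%. Of the 6, Il7r and Il21r passed the filter through the controls alone. Differences were below 0 for 25 of 29 genes (86.2%), against 40.0% of all features. They were at or below -1 for 16 (55.2%), against 1.73%. Both counts include Il7r, Il21r, Ms4a1, Irf4 and Bank1, above background on only 3 or 4 arrays, the first 2 through the controls alone. With normexp correction and percentile scaling, Vpreb1 (-1.50), Vpreb3 (-1.54), Igll1 (-1.13), Cd79b (-1.32), Blnk (-1.32) and Spib (-1.12) stayed at or below -1. The others of the 16 rose above it, and the share of all features under that setting is not reported here. Without that correction the median difference was -1.66 over the 6 tested precursor genes and -0.88 over the 23 others, beside 0.04 over all features. The precursor median was -1.08 without control 1, -1.04 without control 2 and -2.61 without control 3. The median of the others was -0.43 without mutant 2 and -0.63 without control 1.

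**Figure D3:**
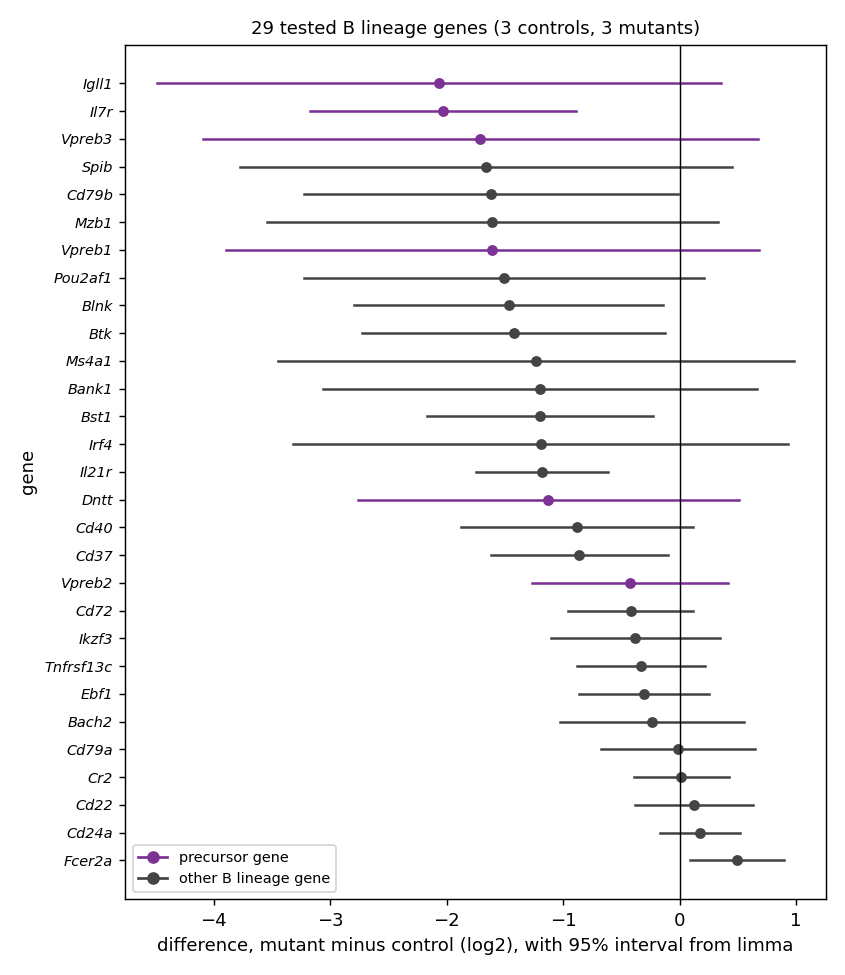
Difference of mutant minus control means (x axis, log2) for the 29 tested genes, ordered by size, with 95% intervals from the limma fit and precursor genes in purple. Intervals of Vpreb1, Vpreb3 and Igll1 cross 0 despite differences beyond -1.6, and only 1 interval, that of Fcer2a, lies wholly above 0.

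The precursor genes varied more among controls than among mutants. Their median SD was 1.72 among controls and 0.41 among mutants. The SD was larger among controls for all 6, as it was for 46.9% of all features. For Il7r the SDs were nearly equal, at 0.720 among controls and 0.716 among mutants. For the 23 other genes the medians were 0.40 and 0.45, and for all features they were 0.19 and 0.20. Control 3 was below both other controls for 21 of the 29 genes (72.4%), against 24.6% of all features. Controls 1 and 2 were both above the other 4 arrays for 19 genes (65.5%), against 5.81%. They were at least 2-fold above those arrays for 9 genes (31.0%), namely Vpreb1, Vpreb3, Igll1, Dntt, Cd79b, Ms4a1, Pou2af1, Spib and Mzb1, against 0.353% of all features. The 21 and the 19, but not the 9, include Il7r and Il21r, which passed the filter through the controls alone. Their place above the mutants was thus built into the filter. Both counts also hold genes with hardly any split: control 1 exceeded control 3 by 0.011 log2 units for Il21r and 0.057 for Btk. Control 1 was an array with more Xist than Ddx3y signal and control 2 was not, and all 3 controls lay in the first row of the slide. The part of sex and slide position in the split was not tested.

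Mutant 2 was the lowest of the 6 arrays for 13 of the 23 other B lineage genes (56.5%) and for 0 of the 6 precursor genes. Among all features the share was 18.7%. The 29 genes thus gave a pair of overlapping patterns, which were named after the values were seen and were not tested as groups. The size of the swing also differed: the range over the 6 arrays had a median of 3.51 log2 units for precursor genes and 1.75 for the others, beside 0.57 for all features.

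**Figure D4:**
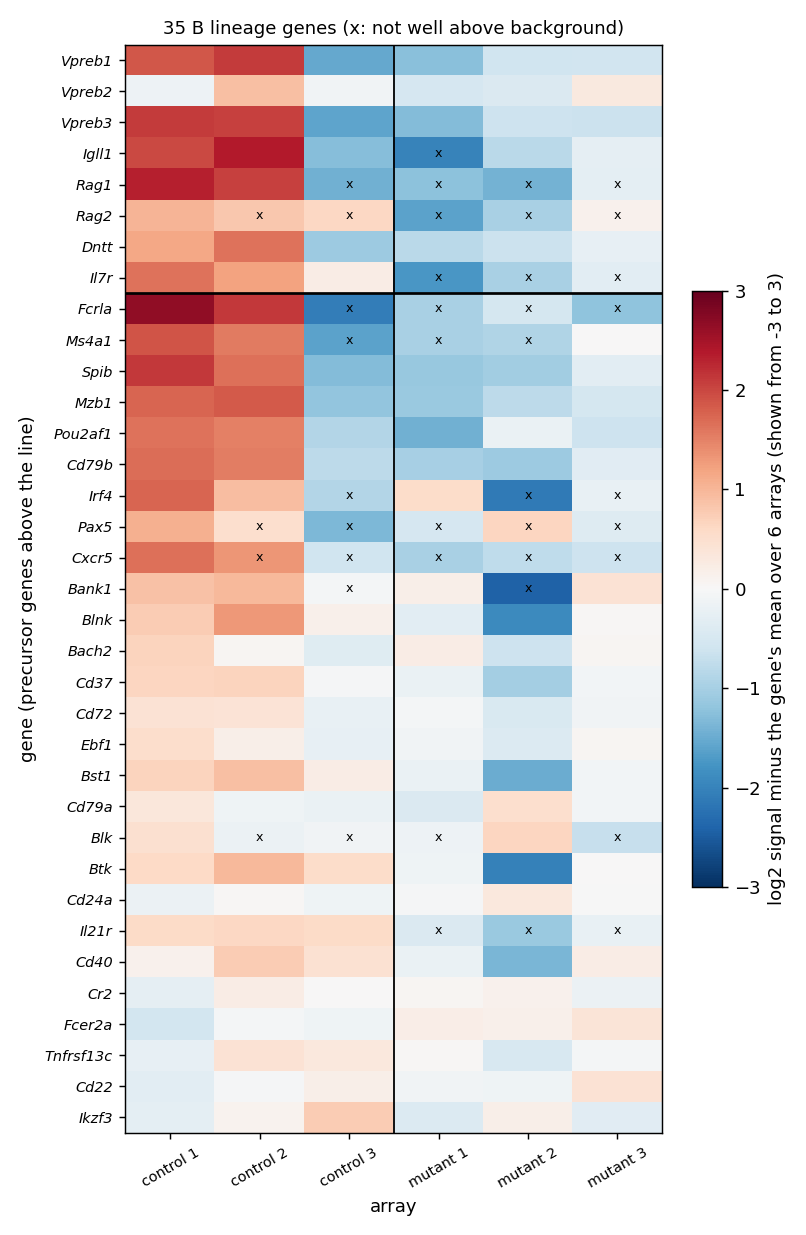
Log2 signal of all 35 genes minus each gene's mean over the 6 arrays (colour, from -3 to 3), with precursor genes above the line, the others ordered by how far controls 1 and 2 exceeded control 3, and a cross where the probe was not well above background. Vpreb1, Vpreb3, Igll1, Rag1, Dntt and the genes from Fcrla to Cd79b are red on controls 1 and 2 and mostly blue elsewhere, and Bank1, Blnk, Bst1, Btk and Cd40 are deepest blue on mutant 2.

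Genes that work with the B cell receptor but are not among the 35 were taken from a list of 25 signalling partners, of which 23 were tested. Of these, 20 had a difference below 0, 2 had an unadjusted limma p below 0.05 in that direction and 0 in the other, and the median was -0.41. For this list and those that follow, the shares of all features were 40.0% below 0 and 1.88% lower at that p. Plcg2, the phospholipase that Btk activates, differed by -0.41 (SE 0.15), and the lipid phosphatase Inpp5d by -0.86 (SE 0.35). Vav1, an exchange factor of blood cells, differed by -1.43 (SE 0.60), with mutants 1 to 3 at 0.0032, -2.004 and 0.34. Mutant 2 was the lowest array for 15 of the 23 partners, where the share of all features was 18.7%. The partners' score was -0.70 on mutant 2 against -0.13 and 0.04 on mutants 1 and 3.

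Among 15 tested growth factor and homing genes of lymphoid precursors the median was -0.32, and 12 were below 0, of which 2 had an unadjusted p below 0.05. Cxcl12, the stromal chemokine that holds B cell precursors in the marrow, read 3.66, 4.80 and 3.97 in controls and 2.62, 0.92 and 2.64 in mutants. Its difference was -2.08 (SE 0.53, limma adjusted p 0.987), with every mutant below every control, control 3 included. The stem cell factor receptor Kit differed by -0.63 (SE 0.25), and Il2rg, the shared chain that pairs with Il7r, by -0.99 (SE 0.43). Il7 itself was undetected on all 6 arrays.

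The median of 16 lymphoid transcription factors was -0.10, with 11 below 0 and 2 at an unadjusted p below 0.05. These were Ikzf1 (Ikaros) and Spi1 (PU.1). Ikzf1 was well above background on only 2 of 3 controls and 1 of 3 mutants, and Spi1 on 3 of 3 controls and 2 of 3 mutants, so the sizes of their differences are not given. The third by p, Irf8, was detected on all arrays and differed by -1.14 (SE 0.49). Plasma cell and activation genes had a median of -0.08 and were below 0 for 7 of 12, with 0 at an unadjusted limma p below 0.05 and 0 adjusted. Prdm1, a regulator of plasma cell formation, differed by -0.56 (SE 0.28), and the surface enzyme Cd38 by -0.42 (SE 0.26). Jchain and Tnfrsf17, made by plasma cells, were undetected on all 6 arrays.

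Markers of other blood and tissue cells were set beside the B lineage genes as list scores, the mean over tested genes of the log2 signal minus each gene's mean over the 6 arrays. The precursor score was 1.43, 1.71 and -0.90 on controls 1 to 3 and -1.27, -0.68 and -0.29 on mutants 1 to 3. The neutrophil score (17 of 17 markers tested) had a similar order at 1.90, 1.12 and -0.81 in controls and -1.27, -0.67 and -0.27 in mutants, and so did the erythroid score (12 of 14) at 1.61, 0.58 and -1.08 in controls and -0.56, -0.37 and -0.18 in mutants. In both of these control 1 exceeded control 2, whereas in the precursor score control 2 was the higher. Neutrophil markers were below 0 for 16 of 17 (median -1.60) and erythroid markers for 11 of 12 (median -0.88), with 1 of each at an unadjusted p below 0.05. The neutrophil marker at that p, Mmp8, departed from the order of its list. It read -1.79, -2.76 and -0.15 in controls, so control 3 was its highest array. The erythroid one, Epor, read 0.57, 0.16 and -1.11 in controls. The neutrophil and erythroid parts in the B lineage values were not tested.

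The score of the 23 other B lineage genes was 0.66, 0.72 and -0.21 in controls and -0.31, -0.80 and -0.07 in mutants. Macrophage markers (11 of 14 tested) scored 0.55, 0.70 and 0.26 in controls and -0.02, -1.51 and 0.02 in mutants, and endothelial markers (10 of 10) scored 0.43, 0.50 and 0.11 in controls and 0.03, -1.18 and 0.11 in mutants. Mutant 2 was the lowest array for all 11 tested macrophage markers and all 10 endothelial markers, as it was for Blnk, Btk, Bst1 and Cd37. Among all features the share was 18.7%. Differences were below 0 for 11 of 11 macrophage markers (median -1.03) and 9 of 10 endothelial markers (median -0.70). Of these, 3 macrophage markers and 1 endothelial marker had an unadjusted limma p below 0.05. Chondrocyte markers ran the other way, with mutant 2 the highest at 0.41 and control 1 the lowest at -0.35. The part of these cell types in the B lineage values was not tested.

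T cell markers did not show the split among controls. Their score (10 of 15 tested) was 0.06, 0.35 and 0.00 in controls and -0.10, -0.48 and 0.18 in mutants. Cd3e read between 0.46 and 0.88 on all arrays, while Cd3g, Cd8b1 and Trat1 were undetected on all 6. The natural killer score, over the 4 of 10 markers that were tested, was 0.50, 0.53 and -0.06 in controls and -0.24, -0.76 and 0.03 in mutants. Gzma showed the split among controls, at -1.95, -2.32 and -3.99. The other markers varied less there: Klrd1 read -5.01, -4.56 and -5.06, Nkg7 0.82, 0.85 and 0.65, and Prf1 -0.74, -0.72 and -0.74. Plasmacytoid dendritic cell markers (9 of 10 tested) scored 0.33, -0.04 and 0.0085 in controls and 0.05, -0.42 and 0.07 in mutants. Of these markers Cox6a2 swung the most and weighed heavily on the score. It read 5.08, 1.29 and 1.31 in controls and 3.57, 0.02 and 3.01 in mutants.

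**Figure D5:**
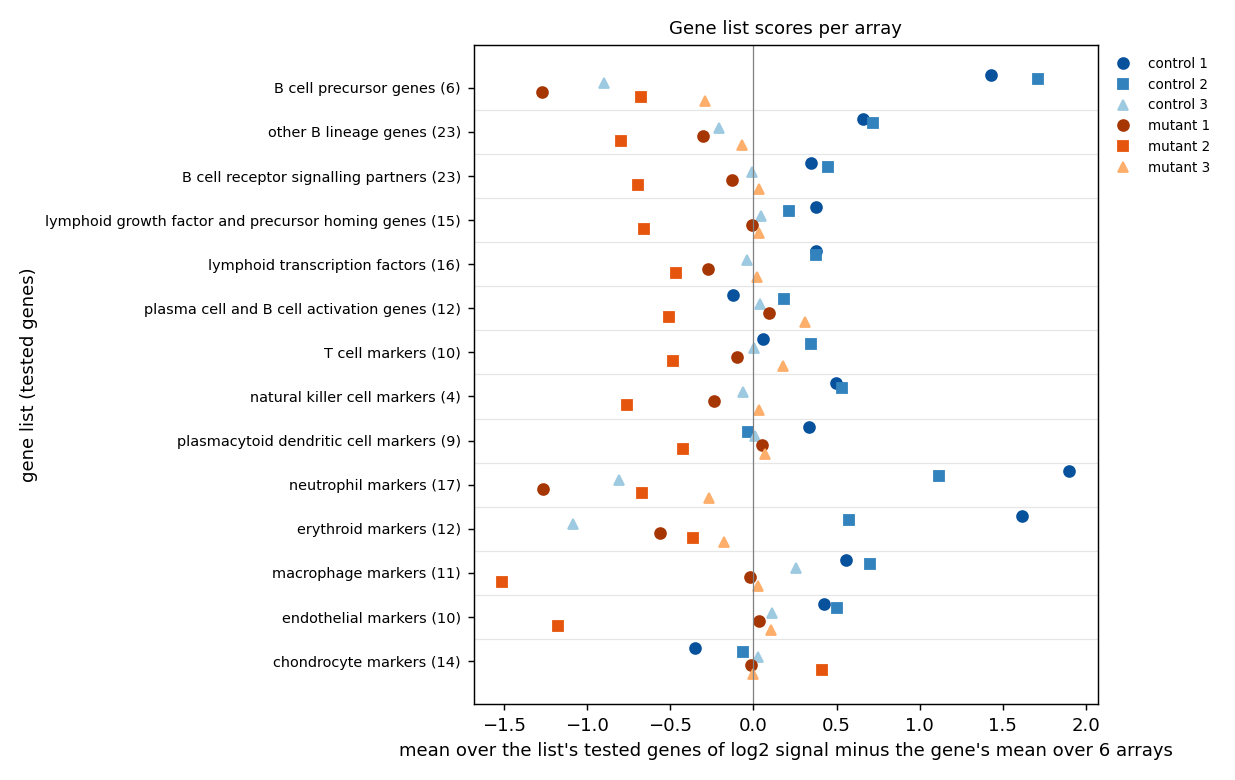
Score of each gene list on each array (x axis, mean of log2 signal minus each gene's mean over 6 arrays), with the number of tested genes after the list's name, controls in blue and mutants in orange. The B cell precursor, neutrophil and erythroid lists have controls 1 and 2 far to the right of the other 4 arrays, and the macrophage and endothelial lists have mutant 2 far to the left.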

How the data were processed

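Cartilage RNA of 3 control and 3 mutant mice was labelled for 1-colour Agilent arrays. The file headers and the submitters' processing notes name Agilent Feature Extraction 10.7.1.1 as the software that read the spots. The deposited intensity values are background-subtracted processed signals and raw medians of spot and local background, with no scaling across arrays. A value table deposited by the authors holds a linear ratio of each feature to its array's 75th percentile, as read from the values (75th percentile 1 in every column, medians 0.094 to 0.104); how it was made is not given in the sources used here.

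Of 55681 probes, 27656 were paired with a symbol by unversioned RefSeq accession (GRCm38.p6). Control and outlier spots were left out, log2 processed signals were set against the array's 75th percentile of non-control spots, and spots of a probe were averaged. Each gene was represented by its brightest passing probe. Mutants were set against controls in limma 3.58.1 (R 4.3.3), using lmFit and eBayes with a 2-sided p adjusted by Benjamini-Hochberg over 25494 features, with 4 residual and 6.42 total degrees of freedom. The fit was tested on simulated data whose spread per feature was capped at the median feature's. That test does not cover genes as variable as the precursor genes. The detection floor in a fold bound is taken on each array: the dimmest signal of any probe well above background, or the value of the probe in question where that is higher. The members and lists were chosen with earlier results of these data known, and 3 arrays per group limit the precision; 3 against 3 cannot give an exact permutation p below 0.1.

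All precursor genes were described by array, and of the others the 6 with the smallest p and the 6 brightest; of each further list up to 3 genes with the smallest p; some single values are not reported here. Alternatives were normexp correction (offset 50, on the median spot signal, since the files used hold no mean signal), quantile scaling, other filters, the mean of a gene's probes, the deposited table (log2 of the value plus 0.01), array weights, the replicate number as a block, subsets of arrays and each array left out. Same-numbered mice did not deviate together (correlations of deviations from the group means 0.20, 0.06 and -0.16), so the numbers were not taken as pairs.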

Additional observations from a re-analysis of the deposited data

How the results depend on the processing

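With 3 mice a group, 0 features passed the adjusted threshold under every alternative except array weights, which called 4 of 25494 (none of the 35 genes; their smallest adjusted p over all alternatives was 0.109). The difference kept its sign under all alternatives for 23 of the 29 tested genes. The count of genes lower at an unadjusted p below 0.05, 7 in the report, was 13 with normexp and percentile scaling, 8 with normexp and quantile scaling, 18 with array weights, 3 with the replicate block, 3 in the first slide row (where the lone mutant is assumed to vary as the controls do) and 3 on arrays with more Ddx3y than Xist signal; it ranged from 2 to 15 when single arrays were left out. The median difference of the non-precursor genes, -0.88, was -0.35 with normexp and either scaling and -0.42 with probes above background on all 6 arrays, and ran from -1.22 to -0.43 when single arrays were left out. The precursor median, -1.66, was -1.01 with normexp and percentile scaling and -0.96 with normexp and quantile scaling, and ran from -2.61 to -1.04 without single arrays. Genes with small differences changed sign: Cr2 (-0.070 with normexp and percentile scaling, -0.035 with normexp and quantile scaling, -0.12 with array weights, -0.032 on arrays with more Ddx3y signal, -0.18 without control 1 and mutant 2), Cd79a (8.63e-06 with normexp and quantile scaling, 9.26e-05 with quantile scaling, 0.19 on arrays with more Ddx3y signal), Cd22 (-0.0043 with array weights, -0.043 on the first row, -0.19 on arrays with more Ddx3y signal) and Bach2 (0.12 with array weights, 0.10 on the first row, 0.29 without control 1 and mutant 2). Ebf1 (0.0058) and Irf4 (0.14) also turned without control 1 and mutant 2. When single arrays were left out, Cr2 ran from -0.12 to 0.13, Cd79a from -0.27 to 0.20, Cd22 from -0.059 to 0.24 and Bach2 from -0.48 to 0.038. The cause of these changes was not tested. Dim probes such as those of Il7r and Il21r lie near background, which limits their folds to bounds.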
